A study of Mus musculus with 25 samples.

Results

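Constitutive H3K27ac contacts are taken here as pairs of 10 kb bins that stand, with the same 2 bins, in all 4 H3K27ac contact lists of the study, those of fibroblasts, embryonic stem (ES) cells, and TKO cells at 0 h and 24 h. The pairs were thus chosen by measured H3K27ac values: a pair is listed where it passed the authors' filters, which the files show as a CPM above 3 in every library of the list and a deposited p-value under 0.1. CPM is a scaled count, the number of contacts of a bin pair relative to all contacts of the same chromosome. There were 14302 such pairs among 159365 pairs found in any of the 4 lists and 493983 found in any of the 9 lists of the study. They made up 23.5% of the fibroblast list, 18.95% of the ES list, 15.3% of the TKO 0 h list and 17.0% of the TKO 24 h list. The word constitutive covers only these 2 cell types, since 3 of the 4 lists come from cells labelled V6.5.

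An active enhancer and its promoter carry acetylation of histone H3 at lysine 27 (H3K27ac), and DNA looping brings such elements close together in the nucleus. In HiChIP, DNA ends near each other in fixed nuclei are ligated, and an antibody enriches those that carry a mark or factor. Hi-C is the same ligation without the antibody. Contacts that cell types share are known to include those of broadly expressed genes and of domain structure, while many enhancer contacts are particular to a cell type. KLF4 is a zinc finger factor that binds GC-rich and CACCC-type DNA and is 1 of the factors used to reprogram fibroblasts to pluripotency.

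The libraries came from mouse cells fixed with 1% formaldehyde. Mouse embryonic fibroblasts (MEFs) were from E13.5 embryos of the rtTA3-OKSM line, heterozygous for an Oct4-GFP reporter, the OKSM cassette and rtTA3, and were collected at passage 3 for H3K27ac HiChIP (2 libraries) and Hi-C (2 libraries). The OKSM cassette carries the reprogramming factors under doxycycline control, and the untreated fibroblasts carry it too. The series' design text names the alleles Rosa26-M2rtTA and Col1a1-OKSM, where the labels say rtTA3. KLF4 HiChIP was made from these fibroblasts after 3 days in doxycycline and ascorbic acid as a bulk population (3 libraries) and after 6 days from cells sorted for SSEA1 (4 libraries). V6.5 ES cells, a single mouse line grown in 2i medium, gave H3K27ac HiChIP (2 libraries), KLF4 HiChIP (4 libraries) and Hi-C (2 libraries). TKO cells are labelled as V6.5 in 2i medium without doxycycline (0 h, 3 libraries) or with doxycycline for 24 h (3 libraries), and the labels do not spell out TKO. The labels do not say that replicates were separate cultures, so p-values measure only the spread between libraries, which may be technical.

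Each HiChIP library held between 48.7 and 180.6 M contacts, and for Hi-C only the listed counts show the depth. TKO 0 h libraries 2 and 3, and TKO 24 h libraries 1 and 3, differed by no more than sampling noise and were counted as 1 sample each. The same held for ES KLF4 libraries 1 and 2 and for libraries 3 and 4, while counts of the first pair of libraries and of the second stood apart from each other. The labelled cell types were checked against marker genes by the H3K27ac contacts listed at their start sites. Each marker list had 24 genes, and those not matched to a RefSeq start site were left out. Of 17 pluripotency genes matched, 17 had more contacts in ES cells than in MEFs. Of 15 fibroblast genes matched, 11 had more contacts in MEFs and none had more in ES cells. The other 4 (Col3a1, Pdgfra, Twist1 and Zeb2) had no listed contact in either and are not informative.

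Promoters at the anchors of the strongest pairs and of the strongest pairs in all 9 lists are shown because the results return to these loci. Only genes with a RefSeq start of the same name in the annotated bin are shown. Neat1, Frmd8os and Ehd1 also stand at these anchors but had no such match. Each runs 5′ to 3′ from 250 bases before to 50 bases after the start in RefSeq (GRCm38.p6), and capitals mark GC boxes, GGGCGG or its complement. Ahnak (chr19:8989034-8989333, plus strand) and Efemp2 (chr19:5473696-5473995, plus strand) are protein-coding genes, and Gm14963 (chr19:6276529-6276828, minus strand) is a long noncoding RNA gene in the bin of Ehd1. Mus81 (chr19:5488330-5488629, minus strand), at the other anchor of the Efemp2 pair, and the noncoding RNA gene Malat1 (chr19:5802623-5802922, minus strand) have none of these letters in the window. The same holds for Rnaseh2c (chr19:5601623-5601922, plus strand), Kat5 (chr19:5610045-5610344, minus strand) and Rin1 (chr19:5050565-5050864, plus strand).
Ahnak: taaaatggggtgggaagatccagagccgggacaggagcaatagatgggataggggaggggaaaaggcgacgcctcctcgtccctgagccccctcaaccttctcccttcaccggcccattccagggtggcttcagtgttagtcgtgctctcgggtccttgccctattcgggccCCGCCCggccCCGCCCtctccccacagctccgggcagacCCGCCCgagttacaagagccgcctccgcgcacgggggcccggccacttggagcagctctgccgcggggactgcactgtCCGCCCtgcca
Gm14963: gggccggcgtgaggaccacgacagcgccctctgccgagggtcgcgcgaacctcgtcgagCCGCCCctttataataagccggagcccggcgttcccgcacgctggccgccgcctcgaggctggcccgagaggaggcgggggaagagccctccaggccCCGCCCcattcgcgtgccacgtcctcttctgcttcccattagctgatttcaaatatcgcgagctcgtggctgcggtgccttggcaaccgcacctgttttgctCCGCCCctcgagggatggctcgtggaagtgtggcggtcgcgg
Efemp2: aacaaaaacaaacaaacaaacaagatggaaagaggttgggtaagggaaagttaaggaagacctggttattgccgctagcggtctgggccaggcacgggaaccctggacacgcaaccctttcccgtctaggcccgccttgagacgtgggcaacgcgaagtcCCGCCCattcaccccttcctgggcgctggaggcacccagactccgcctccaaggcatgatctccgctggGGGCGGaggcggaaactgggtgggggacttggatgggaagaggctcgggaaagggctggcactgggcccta
Mus81: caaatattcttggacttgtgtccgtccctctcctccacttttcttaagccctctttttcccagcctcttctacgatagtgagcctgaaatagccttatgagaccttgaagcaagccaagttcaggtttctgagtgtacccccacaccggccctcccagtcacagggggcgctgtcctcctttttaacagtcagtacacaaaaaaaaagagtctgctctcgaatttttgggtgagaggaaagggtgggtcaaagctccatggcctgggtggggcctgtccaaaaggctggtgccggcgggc
Malat1: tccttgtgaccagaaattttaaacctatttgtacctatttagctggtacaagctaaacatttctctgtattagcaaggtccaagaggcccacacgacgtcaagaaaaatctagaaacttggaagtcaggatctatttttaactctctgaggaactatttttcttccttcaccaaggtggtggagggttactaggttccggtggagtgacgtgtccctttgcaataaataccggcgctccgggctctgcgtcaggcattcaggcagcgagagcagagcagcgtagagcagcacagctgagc
Rnaseh2c: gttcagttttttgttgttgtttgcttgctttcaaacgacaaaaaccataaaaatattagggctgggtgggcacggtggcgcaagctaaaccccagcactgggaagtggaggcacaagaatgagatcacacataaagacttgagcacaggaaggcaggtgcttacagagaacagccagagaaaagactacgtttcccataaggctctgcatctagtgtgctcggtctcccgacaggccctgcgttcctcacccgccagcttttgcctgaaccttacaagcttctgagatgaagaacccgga
Kat5: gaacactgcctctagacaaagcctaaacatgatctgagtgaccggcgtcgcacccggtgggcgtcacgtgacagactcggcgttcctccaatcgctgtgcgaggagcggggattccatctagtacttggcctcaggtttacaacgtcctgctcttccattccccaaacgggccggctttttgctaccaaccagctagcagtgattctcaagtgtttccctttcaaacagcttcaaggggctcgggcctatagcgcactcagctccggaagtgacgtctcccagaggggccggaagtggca
Rin1: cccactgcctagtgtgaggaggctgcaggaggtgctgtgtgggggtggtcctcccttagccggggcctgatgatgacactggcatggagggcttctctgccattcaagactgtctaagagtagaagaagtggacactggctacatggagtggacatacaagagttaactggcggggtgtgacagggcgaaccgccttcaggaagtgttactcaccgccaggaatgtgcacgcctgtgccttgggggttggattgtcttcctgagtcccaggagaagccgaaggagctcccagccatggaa
Thus 3 of these 8 windows held GC boxes, with 4 in Ahnak, 3 in Gm14963 and 2 in Efemp2. The Gm14963 window had 36 CpG dinucleotides, that of Ahnak 22, and that of Mus81 7.

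The constitutive pairs were the stronger part of each list, which their choice favours. Their median CPM was 5.98 in MEFs against 5.20 for the other MEF pairs, 7.53 against 5.18 in ES cells, 9.51 against 6.07 in TKO cells at 0 h, and 8.95 against 6.01 at 24 h. In each of the 10 H3K27ac libraries their median was above that of the other listed pairs. Among the 1000 strongest pairs of a list, 46.9% in MEFs, 47.4% in ES cells, 45.3% at 0 h and 49.4% at 24 h were constitutive. Near the limit, 15.7% of them (2251) had their lowest library at a CPM of 3 to 3.5, and only 2.37% (339) were at 12 or above in all 10 libraries. Just outside the rule were 35804 pairs missing from the MEF list alone, called ES-type below, with a median of 6.13 CPM in ES cells. Far fewer were missing from 1 other list alone: 2669 from ES, 814 from TKO 0 h and 1137 from TKO 24 h.

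**Figure D1:**
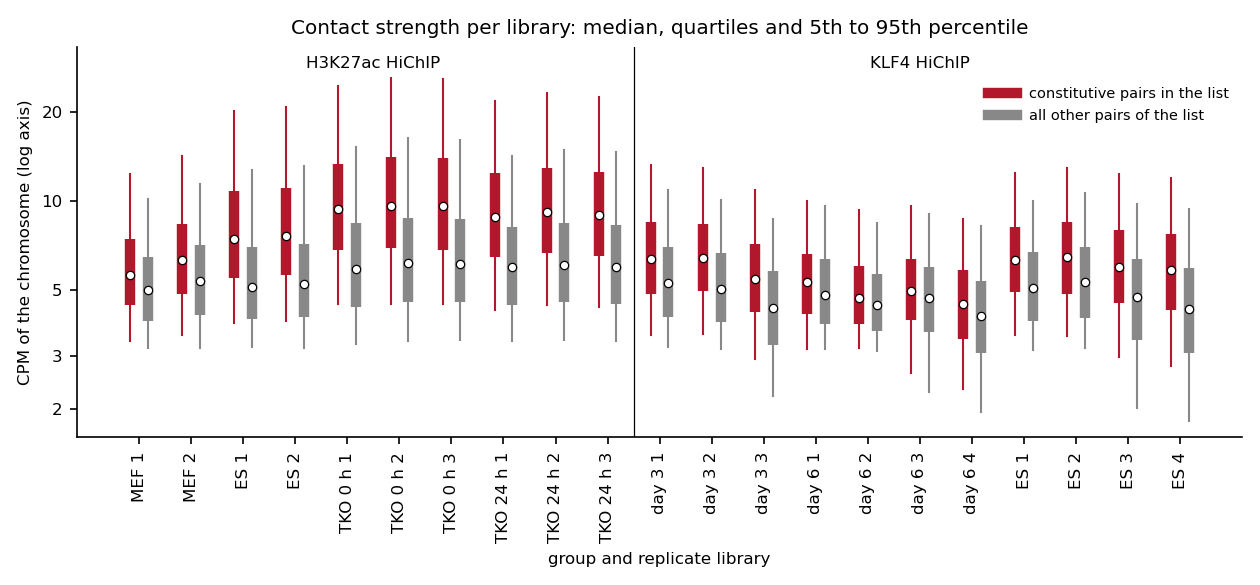
Contact strength (CPM of the chromosome, log axis) in each HiChIP library for the constitutive pairs in its list and all other pairs of that list. Circles are medians, thick bars quartiles and thin lines the 5th to 95th percentile over pairs. In the H3K27ac libraries the medians of the constitutive pairs lie between 5.63 and 9.65 CPM and those of the other pairs between 5.003 and 6.18 CPM.

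Strength was shared closely among the lists of V6.5 cells and loosely between them and MEFs. Across the 14302 pairs, Pearson's r of log2 mean CPM was 0.93 between TKO 0 h and 24 h, 0.87 between ES and TKO 0 h, and 0.46 between MEF and ES. These are correlations across pairs that share libraries and bins, and they are given as description. Libraries of the same group gave r from 0.76 (the 2 MEF libraries) to 0.93 (the 2 ES libraries). The MEF to ES value was therefore below that of the 2 MEF libraries, which held 74.98 and 105.2 M contacts against 166.5 and 168.4 M in ES cells. The TKO 24 h libraries, at 68.32 to 101.7 M contacts, gave r from 0.86 to 0.88 among themselves. The largest group mean was a median of 1.76 times the smallest, and 65.0% of pairs (9296) stayed within 2-fold over all 4 groups. MEFs had the lowest mean in 67.6% of pairs, and TKO 0 h had the highest in 51.5%. This order is of deposited CPM and depends on how the libraries are scaled. Between MEFs and ES cells the median log2 ratio of the constitutive pairs was 0.306 on the deposited scale. In the edgeR test given below it was 0.0792 with TMM scaling and 0.327 with library totals alone.

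**Figure D2:**
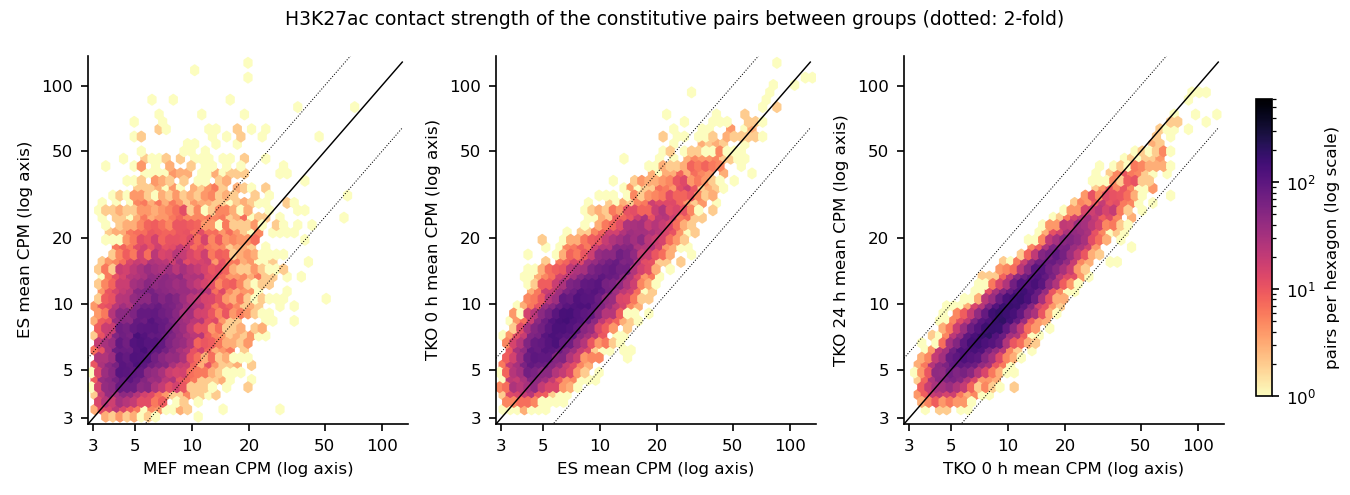
Mean H3K27ac CPM of the 14302 constitutive pairs in pairs of groups (log axes), with the number of pairs per hexagon as colour. The solid line marks equality and the dotted lines 2-fold. The MEF to ES panel is a broad cloud with 83.1% of pairs within 2-fold, against 96.5% for ES to TKO 0 h and 99.9% for TKO 0 h to 24 h.

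On the deposited scale, which ranks chromosomes on their own totals, the pair with the highest lowest group mean joined the bin of Malat1, a noncoding RNA of nuclear speckles, to the next bin (chr19:5800001-5810000 and chr19:5810001-5820000). It measured 58.4 and 80.1 CPM in the 2 MEF libraries, 76.3 and 83.5 in ES cells, 78.8, 89.5 and 101.6 at 0 h, and 68.8, 100.2 and 86.0 at 24 h. MEF library 1 lay below every other library, and MEF library 2 lay within the range of each V6.5 group. The pair from the Malat1-side bin to the bin of Neat1, the paraspeckle RNA, and Frmd8os (chr19:5810001-5820000 and chr19:5840001-5850000) measured 32.0 and 40.7 CPM in MEFs. It measured 83.3 and 81.6 CPM in ES cells, 74.4, 82.2 and 87.4 at 0 h, and 66.0, 72.6 and 66.6 at 24 h, so that both MEF libraries lay below all 8 others. The pair of Ahnak, which encodes a very large scaffold protein, with the next bin (chr19:8980001-8990000 and chr19:8990001-9000000) had the other order. MEFs gave 51.7 and 84.1 CPM, above the 28.98 to 44.1 CPM of the 8 V6.5 libraries.

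Among the 6 strongest was also a pair whose bins both hold a gene, Rnaseh2c, a subunit of ribonuclease H2, and Kat5, the TIP60 acetyltransferase (chr19:5600001-5610000 and chr19:5610001-5620000). Its values were 28.1 and 35.1 CPM in MEFs, 38.4 and 45.1 in ES cells, 34.0, 36.8 and 31.3 at 0 h, and 33.6, 38.2 and 28.2 at 24 h. The MEF values overlapped with both TKO groups, and both ES libraries lay above the other 8. The other 2 were the bin beside Malat1 with its next neighbour (32.0 to 55.8 CPM over 10 libraries) and a chromosome 18 pair with no annotated gene (chr18:36400001-36410000 and chr18:36410001-36420000, 38.4 to 63.4 CPM).

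CPM is scaled per chromosome, so short chromosomes with few contacts rank high: chromosome 19 held 14.3 times as many constitutive pairs per megabase as chromosome 1. With a single cutoff relative to the contacts of the whole library, 6772 pairs remained and that ratio was 3.92. Ranked on the whole-library scale, a choice made after the values were seen, the strongest pairs included other chromosomes, and the chromosome 18 pair came before the Malat1 pair. A pair between the bins of Plekhg2 and Zfp36, the mRNA decay factor (chr7:28370001-28380000 and chr7:28380001-28390000), measured 23.4 and 29.0 CPM in MEFs and 27.2 and 28.1 in ES cells. The Junb pair, at an AP-1 subunit gene (chr8:84970001-84980000 and chr8:84980001-84990000), gave 19.5 and 26.6 CPM in MEFs and 22.8 and 22.1 in ES cells. The Sparc pair, at a matricellular protein gene (chr11:55410001-55420000 and chr11:55420001-55430000), gave 22.0 and 21.7 in MEFs and 19.8 and 20.7 in ES cells. For Junb and for the Zfp36 pair the MEF and ES values overlapped.

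Between MEFs and ES cells, 2158 pairs had a mean over 2-fold higher in ES cells and 264 a mean over 2-fold lower. In edgeR's quasi-likelihood test over the 17901 pairs in both the MEF and the ES list, 4811 of the 14302 constitutive pairs passed an adjusted p of 0.05 (33.6%), beside 32% of all pairs tested. Of these, 3136 were higher in ES cells, beside 17.6% of all pairs, and 1675 were lower, beside 14.4% of all pairs. The same values chose the pairs, so nothing is read from these shares. Scaling by library totals alone raised the median of all pairs by 0.247 on the log2 scale. It also moved the share of called pairs that were higher in ES cells from 65.2% to 83.9%. Without MEF library 2 there were 2885 calls in place of 4811.

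Of the 5 largest rises from MEFs to ES cells, 2 lay near Klf9, a KLF family factor gene, on chromosome 19. The pair ending at the bin of 2410080I02Rik (chr19:23090001-23100000 and chr19:23130001-23140000) measured 5.05 and 5.13 CPM in MEFs and 64.5 and 67.3 in ES cells, a log2 change of 3.53. The pair ending at the Klf9 bin (chr19:23080001-23090000 and chr19:23140001-23150000) measured 6.74 and 3.95 CPM in MEFs and 63.1 and 57.3 in ES cells, a log2 change of 3.40. The other 3 had no annotated gene: chr4:123620001-123630000 with chr4:123650001-123660000 (log2 change 3.504), chr10:108280001-108290000 with its neighbour (3.49), and chr17:66450001-66460000 with chr17:66480001-66490000 (3.36). In each of these 5 pairs both ES libraries were at 43.9 CPM or above and both MEF libraries at 7.21 or below.

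Among the 5 largest falls, the pair chr11:86570001-86580000 with chr11:86650001-86660000 measured 23.9 and 36.4 CPM in MEFs and 3.09 and 3.42 in ES cells, a log2 change of -3.29. The pair ending at Amotl2, an angiomotin family gene (chr9:102640001-102650000 and chr9:102710001-102720000), measured 16.5 and 25.4 CPM in MEFs and 4.30 and 4.89 in ES cells. The log2 changes of the other 3 were -2.58 (chr18:36400001-36410000 with chr18:36490001-36500000), -2.52 (chr19:40240001-40250000 with its neighbour) and -2.39 (4930543E12Rik, chr7:113140001-113150000 with chr7:113180001-113190000). The MEF and ES libraries did not overlap in any of the 5.

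Doxycycline in TKO cells went with small differences at the constitutive pairs. The mean CPM at 24 h over that at 0 h had a median log2 ratio of -0.09, and 99.9% of pairs stayed within 2-fold. The sign of this median depends on the scaling. In edgeR the median log2 change of these pairs was 0.02 with TMM and -0.0854 with library totals alone. Of 14302 pairs, 377 passed the edgeR threshold (2.64%, beside 2.62% of 67728 tested), 113 higher (background 0.576%) and 264 lower (background 2.04%) at 24 h. DESeq2 called 25 of the pairs, all lower and none higher, beside 105 calls over all pairs. It gave an adjusted p to 4700 pairs in all, against 67728 in edgeR, so the calls cover different sets of pairs. The H3K27ac values tested here also chose the pairs. With library totals alone the median of all pairs moved by -0.106, and the share of calls that were higher went from 30% to 8.23%. The count fell to 232 without TKO 0 h library 1 or without library 3, and to 242, 219 and 218 without TKO 24 h library 1, 2 or 3.

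Among these, the pair chr10:95880001-95890000 with its neighbour measured 36.6, 38.8 and 40.5 CPM at 0 h and 13.8, 17.7 and 15.3 at 24 h, with no overlap. The pair starting at Foxo4, a forkhead factor gene (chrX:101250001-101260000 and chrX:101330001-101340000), measured 9.44, 10.6 and 11.2 CPM at 0 h and 5.29, 3.55 and 3.95 at 24 h. A pair on chromosome 18 (chr18:36240001-36250000 and chr18:36270001-36280000) had a log2 change of -1.19. The largest rise joined the bin of Kdelr1, an endoplasmic reticulum retrieval receptor, and Grin2d to that of Syngr4 and Tmem143 (chr7:45870001-45880000 and chr7:45890001-45900000). It measured 4.29, 4.25 and 6.61 CPM at 0 h and 7.83, 10.4 and 11.2 at 24 h. The other rises were chr19:9920001-9930000 with chr19:9970001-9980000 (log2 change 1.13) and chr19:46800001-46810000 with chr19:46860001-46870000 (1.07). DESeq2 gave no adjusted p for any of the 3 rises, the Foxo4 pair or the chr18 pair, and called the chr10 pair. Single libraries decided some of the edgeR calls. The Foxo4 pair did not pass without TKO 24 h library 2 (edgeR adjusted p = 0.11), and the chr19:9920001 pair did not pass without TKO 0 h library 2 (0.0893) or TKO 24 h library 2 (0.38). The chr19:46800001 pair did not pass without TKO 0 h library 1 or 3 or TKO 24 h library 1 or 2 (edgeR adjusted p from 0.0821 to 0.19).

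Hi-C and KLF4 libraries had no part in choosing the pairs, so presence in their lists is a separate readout. The ES Hi-C list held 66.1% of the constitutive pairs (95% Wilson interval 65.4 to 66.9), the MEF Hi-C list 54.6% (53.8 to 55.4) and both lists 45.3% (6475 pairs). Of the 35804 ES-type pairs, 48.3% were in the ES Hi-C list and 32.5% in the MEF Hi-C list. Of the 37164 pairs in the MEF H3K27ac list alone, 38.7% and 42.6% were. The intervals of the 3 sets do not overlap, but they cover counting error only, and no test was made between the sets because neighbouring pairs share bins. The 3599 pairs that MEF and ES cells shared but that a TKO list lacked stood at 66.3% in the ES and 56.3% in the MEF Hi-C list, close to the constitutive pairs. Of the constitutive pairs 24.5% (3505) were in neither Hi-C list.

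In each of the 4 distance classes the constitutive share lay above those of ES-type pairs and pairs of MEFs alone, in both Hi-C lists. In the MEF Hi-C list, 52.5% of constitutive pairs of adjacent bins and 58.7% of those 50 kb or more apart were present, against 38.9% and 23.4% of ES-type pairs. At matched H3K27ac strength the shares also stood apart. Among pairs of 3 to 6 CPM in ES cells the ES Hi-C list held 65.1% of constitutive and 48.6% of ES-type pairs, and at 12 CPM or above 65.0% and 44.0%.

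KLF4 lists held a larger share of the constitutive pairs than of the other sets of H3K27ac pairs. The KLF4 lists are on the same per-chromosome CPM scale, and the shares of the sets were not matched by chromosome. The ES KLF4 list held 46.7% of them (45.9 to 47.5), the day 3 list 38.1% (37.3 to 38.8) and the day 6 list 9.22% (8.76 to 9.71), and 60.3% were in at least 1 of the 3. ES-type pairs were in these lists in 24.6%, 10.1% and 1.68% of cases, and pairs of MEFs alone in 2.08%, 9.35% and 1.25%. On day 3 the comparison sets thus lay within 1 percentage point of each other. The pairs shared by MEF and ES cells but not by both TKO lists stood between, at 22.6% in the ES, 23.5% in the day 3 and 6.06% in the day 6 list. Among pairs of 3 to 6 CPM in ES cells the day 3 share was 31.0% for constitutive and 6.95% for ES-type pairs. Among pairs of 3 to 6 CPM in MEFs it was 31.5% for constitutive pairs and 7.45% for pairs of MEFs alone. At 12 CPM or above in MEFs it was 60.1% and 19.9%.

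**Figure D3:**
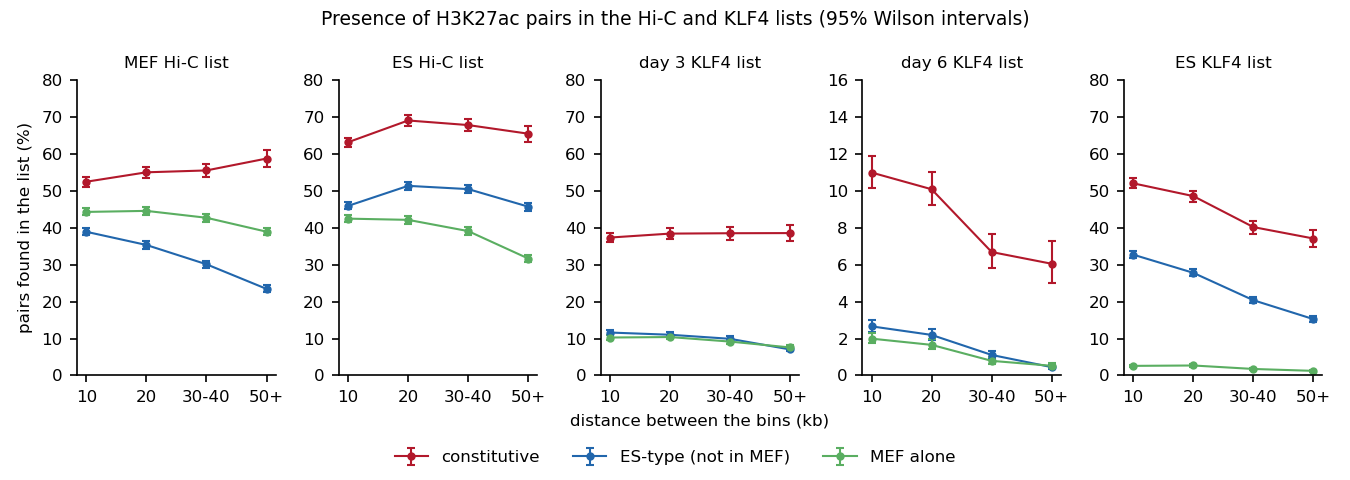
Share of H3K27ac bin pairs that the MEF Hi-C, ES Hi-C and KLF4 lists also hold, by distance between the bins (kb), for constitutive pairs, ES-type pairs (in ES and both TKO lists, not in MEF) and pairs in the MEF list alone. Points are percentages with 95% Wilson intervals, and the day 6 panel has its own axis. The day 3 KLF4 share of constitutive pairs is 37.3% at 10 kb and 38.6% at 50 kb or more, while the ES KLF4 share goes from 52.0% to 37.1%.

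The constitutive pairs fell into classes by KLF4. Both the day 3 and the ES list held 3601 of them, day 3 without ES 1841, ES without day 3 3079, and neither 5781. The day 6 list was not used for these classes, so each may hold pairs of that list. H3K27ac strength differed between these classes: the median was 6.91 CPM in MEFs and 9.64 in ES cells where both lists held the pair, and 5.58 and 6.58 where neither did. On the deposited scale the median log2 ratio of ES over MEF H3K27ac was 0.306 for all constitutive pairs. It was 0.13 for pairs in the day 3 and not the ES list, and 0.47 for pairs in the ES and not the day 3 list. The level and sign of such ratios depend on the scaling, and the same H3K27ac values chose the pairs. An annotated gene stood at an anchor of 67.7% of pairs in both KLF4 lists and 53.4% of pairs in neither. Distances of 50 kb or more made up 18.6% of the day 3 class and 10.3% of the ES class.

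Where both lists held a pair, its KLF4 strength can be compared between the conditions. The median was 6.55 CPM on day 3 and 6.57 in ES cells, and 98.3% of the 3601 pairs were within 2-fold. In edgeR's test over the 7387 pairs in both lists, 271 of these pairs passed (7.53%), beside 7.2% of all pairs, a share near the background. Of them 110 were higher in ES cells (background 3.02%) and 161 lower (background 4.18%). The count was 139, 129 and 78 without day 3 library 1, 2 or 3. Without ES library 1, 2, 3 or 4 it was 293, 290, 215 and 174.

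KLF4 at the Ahnak pair shown above measured 50.7, 37.2 and 29.1 CPM on day 3 and 16.7, 13.7, 17.0 and 22.7 CPM in the ES libraries. All day 3 values lay above all ES values, and the pair fell by 0.94 on the log2 scale (edgeR adjusted p = 0.00136). Its MEF H3K27ac contact was also above that of V6.5 cells. The Malat1 pair, at 24.2, 25.2 and 16.3 CPM on day 3 and 12.2, 6.86, 15.97 and 17.7 in ES cells, overlapped between the groups and did not pass (edgeR adjusted p = 0.119). The Rnaseh2c and Kat5 pair differed by 0.16 on the log2 scale (edgeR adjusted p = 0.725).

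The largest KLF4 falls from day 3 to ES cells were 1.90 on the log2 scale at chr17:26510001-26520000 with chr17:26580001-26590000 (edgeR adjusted p = 4.95e-07), beside the Dusp1 bin. The pair ending at Gm40617 (chr10:25270001-25280000 and chr10:25290001-25300000) measured 22.9, 17.5 and 14.4 CPM on day 3 and 4.14, 4.41, 6.46 and 4.80 in ES cells (edgeR adjusted p = 1.83e-10). The pair of Zfand3, a zinc finger protein gene (chr17:30000001-30010000 and chr17:30040001-30050000), measured 14.8, 11.4 and 9.80 on day 3 and 4.20, 3.797, 2.61 and 2.50 in ES cells (edgeR adjusted p = 1.18e-07). In all 3 the groups did not overlap.

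The largest KLF4 rise was again the pair near Klf9 that ends at 2410080I02Rik, with 6.24, 6.76 and 4.26 CPM on day 3 and 5.87, 9.15, 20.1 and 21.2 in ES cells (edgeR adjusted p = 2.27e-05). ES libraries 3 and 4 were far above ES libraries 1 and 2, of which library 1 lay within the day 3 range. Without day 3 library 3 the adjusted p of this pair was 0.109. The other 2 rises had no overlap between groups: chr13:73760001-73770000 with chr13:73780001-73790000 (log2 change 1.26) and chr5:134430001-134440000 with its neighbour (1.23).

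Few differences in Hi-C strength passed the test. Of 6460 pairs tested, 2 passed in edgeR (0.031%, beside 0.0322% of 124204 pairs), both higher in ES cells (background 0.0209%), and none lower (background 0.0113%). DESeq2 called none. An unadjusted p under 0.05 in edgeR was found for 502 of the 6460 pairs, beside 7544 of all 124204 pairs tested. Without MEF library 1 or library 2 none passed, without ES library 1 the Pdia5 pair did not (edgeR adjusted p = 0.118), and without ES library 2 there were 7 calls. The median log2 change was 0.00 with 5th and 95th percentiles of -0.46 and 0.49. The called pairs joined Pdia5 to Sema5b (chr16:35490001-35500000 and chr16:35540001-35550000; signal 18.9 and 21.0 in MEFs, 66.0 and 54.1 in ES cells) and Hdhd3 to Alad, a heme synthesis gene (chr4:62500001-62510000 and chr4:62510001-62520000; 77.7 and 70.3 in MEFs, 191.1 and 172.3 in ES cells).

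All 9 lists held 535 constitutive pairs (3.74%), against 0.380% of ES-type pairs and 0.137% of pairs in MEFs alone. On the scale of each chromosome the 5 strongest all lay on chromosome 19. Ranked relative to the whole library, a choice made after the values were seen, the first 5 lay on other chromosomes and began with the Zfp36 and Junb pairs described above. On the deposited scale the Neat1 pair was first, with KLF4 at 15.6, 17.5 and 13.0 CPM on day 3, a range of 6.24 to 10.2 on day 6, and 10.4 to 19.6 in ES cells. Its Hi-C signal was 44.9 and 26.9 in MEFs and 54.9 and 39.7 in ES cells, so that the groups overlapped. The pair from the bin of Gm14963 and Ehd1, an endocytic recycling gene (chr19:6270001-6280000 and chr19:6300001-6310000), measured 25.8 and 24.5 CPM of H3K27ac in MEFs and 41.0 and 50.6 in ES cells. Its KLF4 contact was 32.0, 24.0 and 19.9 CPM on day 3 and 13.54, 20.6, 17.5 and 22.4 in ES cells, an overlap.

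Rin1, a Ras and Rab effector gene (chr19:5050001-5060000 and chr19:5070001-5080000), had 37.1 and 38.7 CPM of H3K27ac in MEFs and 34.1 and 39.99 in ES cells. Efemp2, the fibulin-4 gene of the extracellular matrix, and Mus81, a nuclease gene of DNA repair, formed the gene-to-gene pair among the 5 (chr19:5470001-5480000 and chr19:5480001-5490000). It measured 33.1 and 37.5 CPM in MEFs and 24.5 and 27.3 in ES cells, with KLF4 at 17.2, 18.7 and 17.99 on day 3 and 25.7, 28.2, 17.0 and 12.3 in ES cells. The fifth, chr19:43500001-43510000 with its neighbour, has no annotated gene. None of these 5 pairs passed the KLF4 or the Hi-C test (edgeR adjusted p from 0.0616 up).

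Constitutive pairs were short. Adjacent bins (10 kb) made up 37.3%, 20 kb 29.7%, 30 to 40 kb 20.6% and 50 kb or more 12.4%, against 21.7% at 50 kb or more for ES-type pairs and 26.7% for pairs of MEFs alone. Of the 14302 pairs, 13432 were scored for domains (TADs) in both cell types, and 97.8% of these lay inside 1 TAD in both. The share was 95.5% of 33570 scored ES-type pairs and 97.4% of 35356 scored pairs in MEFs alone. Pairs without a score in both TAD sets are left out of these shares. The MEF set has no X chromosome, but the 424 constitutive pairs on X are only part of those left out. By the peak column of the TKO lists, 55.1% of pairs had an H3K27ac peak at both times at both anchors, against 59.97% of ES-type pairs.

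The longest pair spanned 600 kb, from Hspa9, a mitochondrial chaperone gene, to Snhg4 and Gm28285 (chr18:34950001-34960000 and chr18:35550001-35560000). It measured 3.95 and 6.38 CPM in MEFs, 4.57 and 5.39 in ES cells, 3.502 to 4.16 at 0 h and 3.24 to 4.62 at 24 h, so that the MEF values overlapped with each V6.5 group while both ES libraries lay above all 3 of 0 h. It did not lie inside 1 TAD in either cell type. The pair from Atad1, a mitochondrial ATPase gene, over 510 kb (chr19:32710001-32720000 and chr19:33220001-33230000) was not inside 1 TAD in either, at 3.93 and 8.29 CPM in MEFs and 4.94 and 3.47 in ES cells. The next 3, of 500, 480 and 410 kb (chr14:76500001-76510000 with chr14:77000001-77010000, chr5:64380001-64390000 with chr5:64860001-64870000, and chr12:70490001-70500000 with chr12:70900001-70910000), lay inside 1 TAD in both and in both Hi-C lists. The chr12 pair measured 9.18 and 9.13 CPM in MEFs and 3.89 and 3.58 in ES cells.

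The authors' TKO lists name genes per bin. A gene stood at 1 anchor or both in 59.3% of the constitutive pairs and at both in 12.5%, against 45.9% and 7.92% of ES-type pairs. RefSeq start sites of protein-coding genes, independent of those lists, gave 50.3% and 10.1% for constitutive pairs, 38.2% and 6.25% for ES-type pairs, and 15.1% and 1.05% for pairs of MEFs alone. Of 12695 genes named in the TKO lists, 5369 (42.3%) lay in at least 1 constitutive pair, 691 in 5 or more and 64 in 10 or more.

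Some genes of cell structure and metabolism were in these pairs, and their shares stand beside 42.3% of all genes named in the TKO lists. Of 27 cytoskeleton genes in the TKO lists 25 were (92.6%, interval 76.6 to 97.9), led by the nonmuscle myosin gene Myh9 with 13 pairs, the tubulin gene Tuba1b with 10 and Tubb2b with 9. Of 15 glycolysis genes 13 were (86.7%), among them Pgam1 with 9 pairs, Hk2 with 6 and Pkm with 4. Of 26 chaperone genes 17 were, with 7 pairs each for Hspa4 and Hspa9 and 5 for Calr. Of 18 AP-1 and immediate early genes 12 were, with 14 pairs for the phosphatase gene Dusp1, 11 for Klf9 and 8 for Junb. The 42.3% counts 5374 genes with no contact in the MEF list, which cannot be in a constitutive pair. Such genes were 1 of the 27 cytoskeleton and 2 of the 15 glycolysis genes. They were 8 of the 26 chaperone and 0 of the 18 AP-1 and immediate early genes. The lists thus do not start on equal terms. No order among the lists, or against all genes, is read from these shares.

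Genes of the expression machinery were in them at shares from 42.9% to 59.0%. The lists gave 36 of 61 splicing genes (Hnrnpul2 with 12 pairs, Sf3b3 with 10, Hnrnpm with 9), 39 of 67 RNA polymerase II and Mediator genes (Med20 with 10, Taf6l with 8, Med25 with 7), and 31 of 58 translation factor genes (Eif4ebp1 with 9, Eef1g and Eif4b with 7 each). There were 47 of 82 ribosomal protein genes (Rpl26 and Rps18 with 8 pairs each, Rpl10 with 7) and 30 of 62 mitochondrial ribosome genes (Mrpl43 with 9, Mrpl49 with 7, Mrpl24 with 6). Chromatin architecture genes had 9 of 21, near the share of all genes, with 6 pairs for Zfp143, 5 for the cohesin gene Smc3 and 4 for Ctcf. Genes without a MEF contact were 22 of the 61 splicing and 24 of the 67 RNA polymerase II and Mediator genes. They were 23 of the 58 translation factor and 32 of the 82 ribosomal protein genes. Among mitochondrial ribosome genes they were 27 of 62, and among chromatin architecture genes 10 of 21.

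Respiratory chain genes gave 41 of 72 (5 pairs each for Atp5b, Atp5l and Cox14), proteasome genes 21 of 40 (5 each for Psma6 and Psme2, 4 for Psma3) and cell cycle genes 12 of 23 (9 for the inhibitor gene Cdkn1a, 5 for Cdkn1b, 3 for Ccnd3). Of 19 long noncoding RNA genes 11 were in constitutive pairs, with 9 pairs for Neat1, 8 for Malat1 and 6 for Snhg4. Of 5 microRNA host genes 3 were (3 pairs for Mir22hg, 1 each for Mir142hg and Mir155hg), and of 3 replication-dependent histone genes 1, Hist1h2bc with 3 pairs. The first 4 of these lists were at 56.9%, 52.5%, 52.2% and 57.9%, beside 42.3% of all genes. Genes without a MEF contact were 27 of the 72 respiratory chain, 13 of the 40 proteasome and 10 of the 23 cell cycle genes. They were 8 of the 19 long noncoding RNA, 2 of the 5 microRNA host and 1 of the 3 histone genes.

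Few pluripotency genes were in them. Of 22 named in the TKO lists 2 were (9.09%, interval 2.53 to 27.8), Nanog and Klf2, with 1 constitutive pair each. The Nanog bin had 23 contacts in the ES list and 1 in the MEF list, and the Klf2 bin 11 and 1. Of 24 fibroblast genes only 7 are named there and 1 was in a pair, Pdgfrb, an interval of 2.57% to 51.3% that covers the share of all genes. None of 16 Hox genes was (interval up to 19.4%). A gene whose bin has no contact in the MEF list cannot be in a constitutive pair. That held for 19 of the 22 pluripotency genes, 10 of the 16 Hox genes and 5374 of all 12695 genes. The choice of pairs thus lowered these shares in advance, and nothing is read from them. Gene names come from the lists of TKO cells and do not cover bins in the MEF list alone, and the shares stand beside the 42.3% of all genes without a test.

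**Figure D4:**
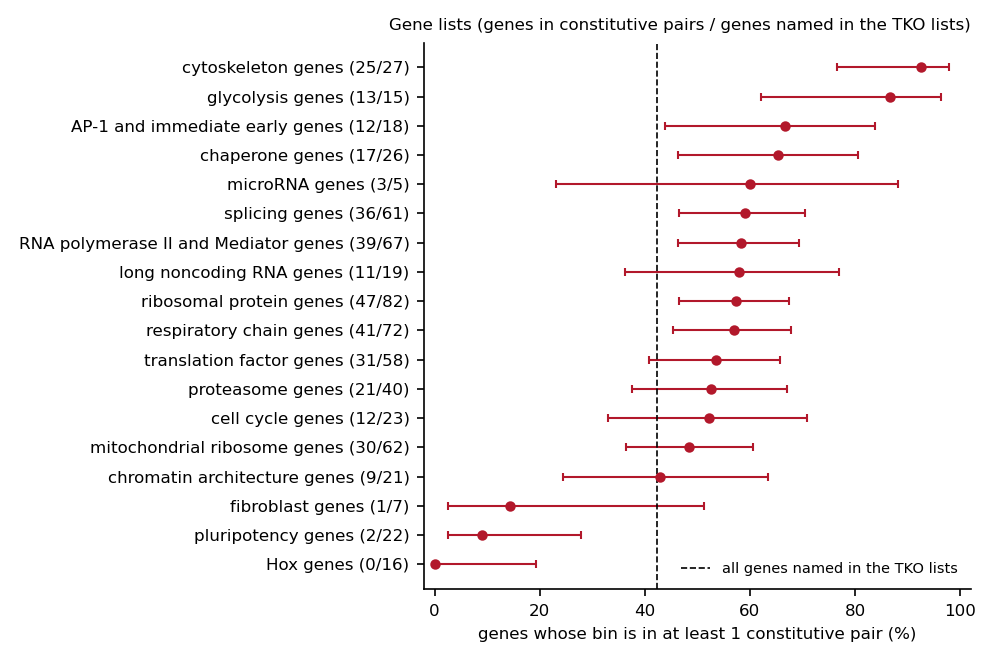
Share of the genes in each list whose 10 kb bin is part of at least 1 constitutive pair, among genes named in the TKO lists, with 95% Wilson intervals and the counts in brackets. The dashed line is the share over all genes, 42.3%. Genes without a contact in the MEF list are counted, though they cannot be in such a pair. Lists with fewer than 5 genes are left out. Cytoskeleton and glycolysis genes are at the top, at 92.6% and 86.7%, and Hox and pluripotency genes at the bottom, at 0% and 9.09%.

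The promoters of genes in constitutive pairs were rich in CpG. Of 12695 genes, 8868 matched by symbol to a RefSeq promoter whose start lay in the annotated bin. The median number of CpG dinucleotides in the 300 bases was 21 for 3847 genes in constitutive pairs, 18 for 2637 genes with ES-type pairs only and 17 for 2384 genes with neither, against 7 for all 32851 promoters in the table. GC boxes (GGGCGG on either strand) were found in 65.0% (63.5 to 66.5), 58.6% (56.7 to 60.4) and 54.8% (52.8 to 56.8), and in 35.7% of all promoters. The ETS-type word CCGGAAG was found in 20.3%, 15.7% and 13.4%, against 8.86% of all, and the NRF1-type word GCGCATGCG in 4.29%, 2.92% and 3.10%, against 1.75%. The AP-1 word TGACTCA was found in 3.56%, 4.06% and 3.77%, against 5.20%. TATAAA was found in 6.84%, 7.36% and 8.77%, against 13.6%, but in 10.75% (8.31 to 13.8) of the 493 genes with 5 or more constitutive pairs. All words were sought on both strands and can overlap others, and a match is only a match of letters.

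Constitutive pairs met in shared bins. The order of bins and groups that follows depends on the chromosome scale of the lists, which favours chromosome 19. They used 13943 bins, of which 7677 (55.1%) were in 1 pair and 99 in 10 or more. The bin in most pairs, 22, was chr19:8990001-9000000, next to the bin of Ahnak with 20 and near chr19:9070001-9080000 with 18. The bin of Ints5, Lbhd1, 1810009A15Rik and Uqcc3 (chr19:8880001-8890000) was in 17, as was chr18:36410001-36420000, and that of Gm20703 (chr17:70830001-70840000) in 16, like the bin of Bscl2 and Gng3 (chr19:8830001-8840000). The Ahnak bin had 32 contacts in the MEF list and 28 in the ES list, and 16 in the day 3 and 13 in the ES KLF4 list. The Ints5 bin had 17 in the MEF and 36 in the ES list, so that each of its MEF contacts was also in the other 3 lists.

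Joined through shared bins, the pairs formed 3201 connected groups, of which 1242 were single pairs and 359 held 10 or more, in all 49.3% of the pairs. The largest on this scale covered chr19:8690001-9120000 with 180 pairs over 41 bins and 28 named genes. These run from Snhg1 and Slc3a2, an amino acid transporter gene, through Nxf1, Taf6l, Polr2g and Eef1g to Ahnak and Scgb1a1. Its median was 8.78 CPM in MEFs, 11.6 in ES cells, 12.9 at 0 h and 12.2 at 24 h. Of its 180 pairs the day 3 KLF4 list held 100, the ES KLF4 list 111, the MEF Hi-C list 59 and the ES Hi-C list 104.

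**Figure D5:**
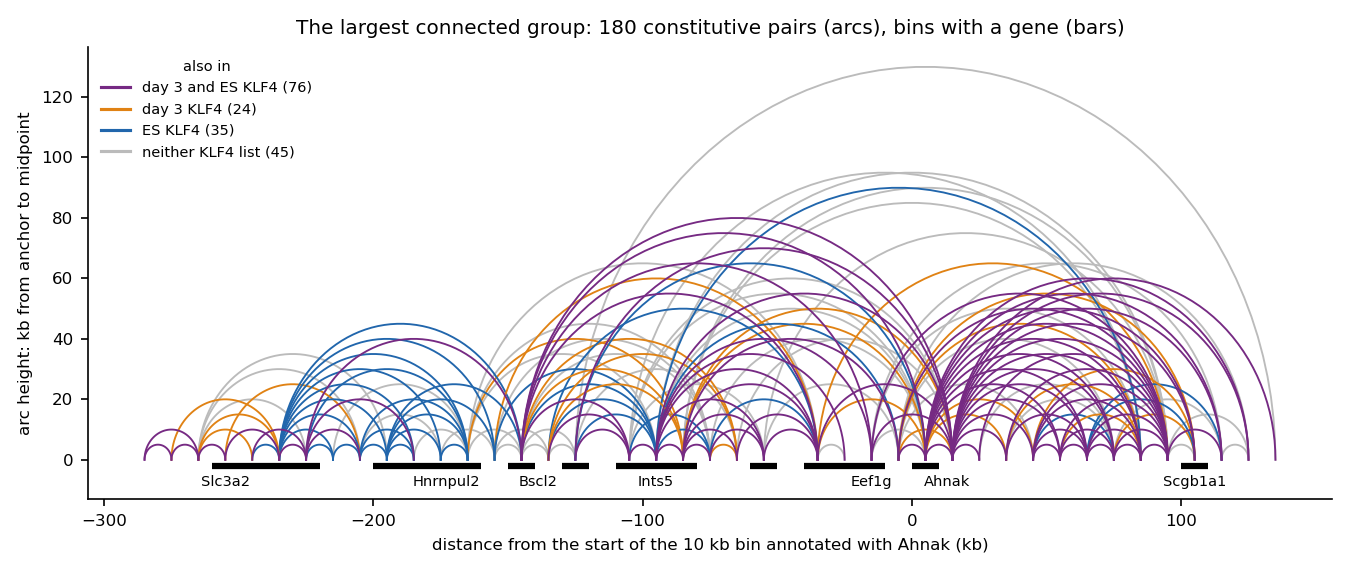
The largest connected group of constitutive pairs, with each of 180 pairs drawn as an arc between its 2 bins, against distance from the start of the Ahnak bin (kb). The arc height is the distance from anchor to midpoint (kb), the colour gives the day 3 and ES KLF4 lists that hold the pair, and black bars mark bins with a named gene. Of the arcs 76 are in both of these lists, 24 in day 3 and not ES, 35 in ES and not day 3, and 45 in neither. The day 6 list is not shown.

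The second group, chr19:5910001-6360000, had 84 pairs and 26 genes, among them Dpf2, Ehd1 and Men1. The third, chr12:86770001-86960000, had 81 pairs with only Gm26698 and Cipc named, and the fourth, chr17:70700001-70980000, had 67 with the homeobox gene Tgif1. The fifth, chr15:77770001-77930000, had 64 with Myh9 and the thioredoxin gene Txn2. The MEF Hi-C list held 27 of the 67 pairs of the Tgif1 group and the ES Hi-C list 12. In the group of Ehd1 they held 63 and 66 of 84. With 1 whole-library cutoff, a comparison added after the values were seen, 48 of the 180 pairs of the first group remained. The largest group was then chr12:86770001-86950000 with 38 pairs (Gm26698 and Cipc), followed by chr7:80730001-80860000 with 34 (Iqgap1, a cytoskeletal scaffold gene) and the Myh9 and Txn2 group with 28, and a group of 24 around Ahnak came next. The bins in most pairs, 11 each, lay on chromosomes 7, 12 and 18.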

How the data were processed

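The deposited HiChIP lists give, per pair of 10 kb bins, raw contact counts, CPM, and a p-value and FDR of the authors, per the file headers. The files show that the authors' CPM is scaled to the contacts of the same chromosome, so levels of pairs on different chromosomes differ in scale, and rankings on this scale favour short chromosomes. Rankings and groups were therefore also made relative to the whole library, after the values were seen. The deposited Hi-C lists give counts and a scaled signal whose constant is not given in the sources used here, per the file headers. The submitters' processing notes name mm10 and Bowtie2 2.2.3.

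Pairs were matched on both bins (pandas 2.3.3, Python 3.11.15). Raw counts of all pairs in both lists of a comparison were fitted with edgeR 4.0.16 (R 4.3.3; quasi-likelihood test, TMM on contact totals, filterByExpr, Benjamini-Hochberg over all pairs, adjusted p under 0.05). Libraries that agreed within sampling noise by a chi-square test were summed where other libraries of the group differed. All 4 day 6 KLF4 libraries agreed and entered no test. Requiring a CPM above 3 in every library leaves no low values among the H3K27ac pairs. Shares carry 95% Wilson intervals, which cover counting error only, since reads carry no molecular identifiers and neighbouring pairs share bins.

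Named pairs were the 6 strongest by their lowest group mean, the 5 longest, the 5 strongest in all 9 lists, and those with the largest called rises and falls of each comparison. The pairs and the gene lists were chosen with earlier results of these data known. Alternatives tried were another scaling, DESeq2 1.42.0, no count filter, the replicate block, unjoined libraries, each library left out, stricter or looser lists, and adjacent bins left out.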

Additional observations from a re-analysis of the deposited data

How the results depend on the processing

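The number of constitutive pairs was 22876 when an anchor could lie 1 bin away, 3898 at a CPM of at least 6, 87 at the authors' FDR under 0.1, 6772 with 1 whole-library cutoff and 8970 without adjacent bins. For pairs of at least 6 CPM, pairs past the whole-library cutoff, pairs without adjacent bins and matching within 1 bin, in that order, the MEF Hi-C share was 56.3%, 56.3%, 55.9% and 86.6%, and that of both Hi-C lists 47.1%, 47.4%, 46.2% and 83.7%. In the same order the ES KLF4 share was 61.2%, 55.0%, 43.5% and 74.1%, the day 6 share 17.8%, 12.05%, 8.17% and 24.5%, and that of all 3 KLF4 lists 12.6%, 8.54%, 5.15% and 19.96%. The ES Hi-C share moved to 67.9% without adjacent bins and 93.1% within 1 bin, and the day 3 KLF4 share to 48.6% at 6 CPM, 43.7% past the cutoff and 61.5% within 1 bin. Past the whole-library cutoff 57.9% of pairs had a gene and 11.5% had genes at both anchors. Of those scored for TADs in both cell types, 98.1% lay inside 1 TAD in both. Without adjacent bins 14.0% had genes at both anchors. The median distance was 10 kb at 6 CPM and past the cutoff. Calls among constitutive pairs (H3K27ac ES against MEF, TKO, KLF4, Hi-C) numbered 2100, 25, 42 and 0 with DESeq2, and 2803, 184, 178 and 2 without adjacent bins, where fewer pairs are tested. DESeq2 gave an adjusted p to 15124, 4700, 4809 and 127440 pairs in these comparisons, and called 2396, 105, 64 and 0 of them. KLF4 calls were 153 with library totals alone. Leaving out 1 library gave 2885 to 4101, 218 to 263, 78 to 293 and 0 to 7. The replicate numbers did not pair the libraries (correlations of deviations from -0.0523 to 0.0306), and with the replicate block and every library separate the calls were 4952, 454, 160 and 4, against 4811, 427, 365 and 2 with every library separate and no block. DESeq2 gave no adjusted p for 7 of 25 named pairs (5 TKO pairs and 2 KLF4 pairs), which enter no count. Of 270 values of 25 named pairs under these alternatives, 255 kept direction and call, 15 lost the call and none reversed. The cause of these shifts was not tested otherwise. Counts near the cutoff and the unknown Hi-C depth limit the precision.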
